A study of Caenorhabditis elegans with 4 samples.

Results

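The regions described here are the SKN-1 regions of the Caenorhabditis elegans X chromosome beyond its left end, that is, listed regions on X with a midpoint at 3000000 or further right on the WS180 build. There were 1154 of them, of 7714 listed regions in all and 1416 on X. They were chosen by position, but measured values stand behind the rule: the edge at 3000000 was selected on input tags per kb, which are higher to its left, and every region had already passed the authors' q limit of ChIP over input. The 262 regions left of the edge were not used, and the 6298 regions of the 5 autosomes served for comparison.

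SKN-1 is a transcription factor that binds DNA through a basic region without a leucine zipper. In the early embryo it is known for the specification of gut and pharynx precursors, and after hatching for the induction of detoxification and oxidative stress genes, much of it in the intestine. The X chromosome of C. elegans differs from the autosomes in its use: hermaphrodites carry a pair of X chromosomes, a dosage compensation complex binds along both and lowers their transcription, and genes with germline expression are scarce on X.

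Chromatin came from fed hermaphrodite larvae of the first stage (L1) of strain OP178, grown at 20 °C, which carry an unc-119(ed3) mutation and the transgene wgIs178, made by bombardment. This transgene holds unc-119 and a skn-1 gene that carries TY1, EGFP and FLAG sequences. Goat antibodies against GFP pulled the tagged protein down from crosslinked whole larvae, so all tissues were pooled and the tagged protein comes from an added gene copy. The labels name 2 ChIP and 2 input libraries, all of this strain and stage, but the list combines them: no value of a library, no spread between replicates and no library total enters any result.

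Beyond the left end, X was covered evenly and mostly by short regions of modest enrichment. The regions ran from 3022341 to 17715184, or 78.5 per Mb, and covered 540 kb in sum, 3.67% of that span. The median region was 364 bp wide, and the quartiles were 216 and 572 bp. At the extremes, 149 regions, or 12.9% (13.6% of the whole list), were under 100 bp wide, 6 were a lone base, and the widest spanned 5840 bp. The authors' q values, from the PeakSeq caller, ran from 7.07e-175 to 0.00993 with a median of 0.000184. ChIP and scaled input tags were recovered from these q values for all 1154 regions. In the middle of the distribution stood 86 ChIP tags and 40 scaled input tags (25 before scaling). The ChIP to scaled input ratio had a median of 2.29 and quartiles of 1.93 and 2.88. It was above 2 at 804 regions, or 69.7% (75.95% of the whole list), inside the autosomal range of 68.9 to 85.1%.

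Against the autosomes, these X regions included more broad ones and fewer highly enriched ones. A width of 1000 bp or more was reached by 86 regions, or 7.45% (5.67% of the whole list), against 4.19% on chromosome I to 5.56% on V. Widths of 500 bp or more made up 32.5%, against 21.8 to 27.1% on the autosomes. A ratio above 4 was reached by 83 regions, or 7.19% (11.5% of the whole list), against 9.51% on III to 14.8% on IV. A q under 1e-10 was reached by 173 regions, or 14.99% (18.6% of the whole list), against 15.6% on V to 21.0% on I. In each of these 4 shares X lay outside the range of all 5 autosomes, though the share under 1e-10 lay close to that of V. The share with a q under 0.01 could not be set out by chromosome: it was 54% over all tests the q values imply.

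The test fixed for these comparisons takes chromosomes as the units, since regions of one list are not replicates. With 1 stretch of X against 5 autosomes, the exact two-sided permutation test cannot give a p below 0.167, and that smallest value was reached by the share of regions of 1000 bp or more. This share was added after the data were seen. The width result fixed for the test, the median, gave an exact permutation p = 0.667, and the regions per Mb gave p = 1. The ratio and q values come from the same ChIP to input comparison that put the regions on the list, and are given as descriptions without a test.

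**Figure D1:**
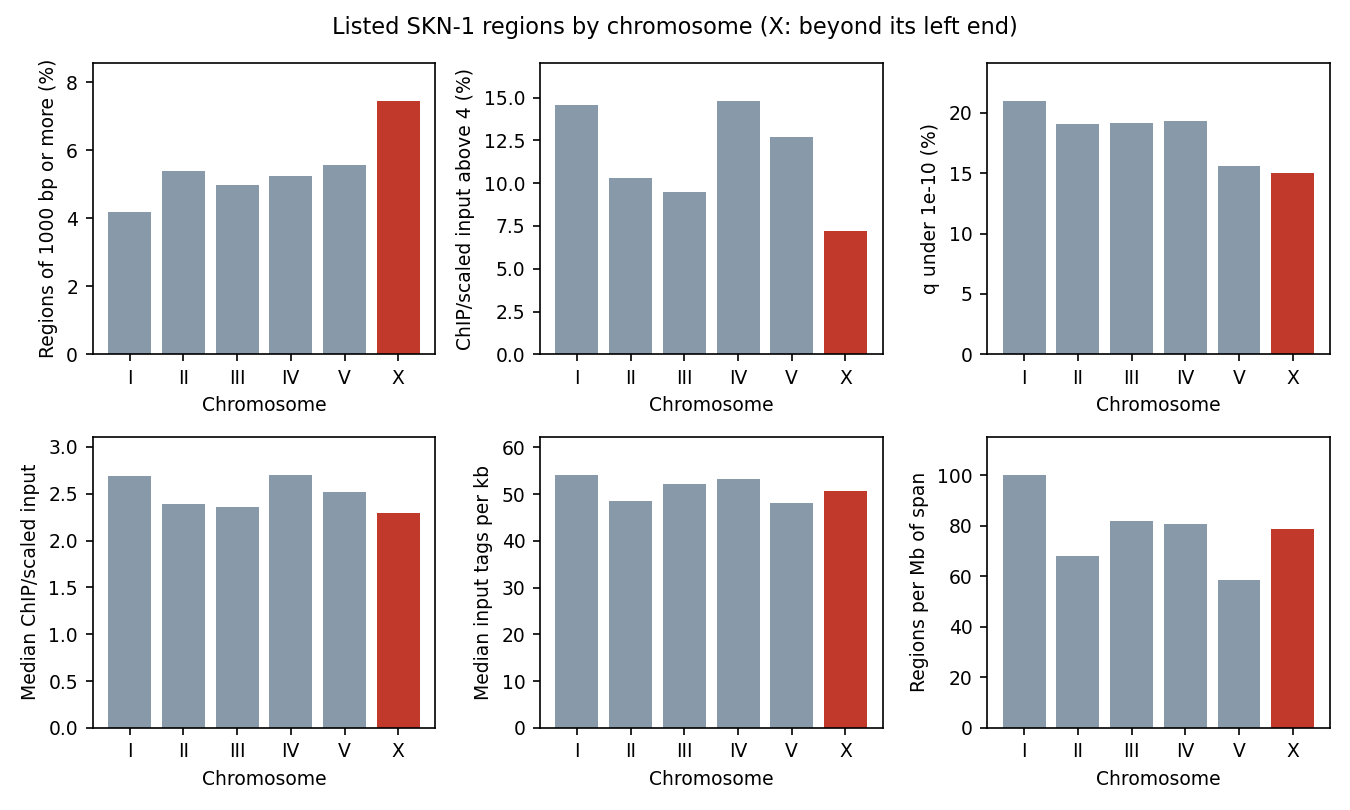
Bars give, for the listed SKN-1 regions of each autosome (grey) and of X beyond its left end (red), the share of regions of 1000 bp or more, the share with a ChIP to scaled input ratio above 4, the share with a q under 1e-10 (all in %), the median ratio, the median input tags per kb before scaling, and the regions per Mb of span. There are no replicates and no error bars; X has the highest share of broad regions (7.45%) and the lowest share of ratios above 4 (7.19%), while its input per kb and regions per Mb lie among the autosomes.

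X stood apart mainly in the upper part of width, though not at its far end, and at the upper end of ratio. The upper quartile of the width was 572 bp, against 465.5 to 524 bp on the autosomes. At the 97th and 99th percentiles the X width lay below those of II and V, and at the 98th just above. I, III and IV lay lower at each. The widest region of the stretch, 5840 bp, was exceeded on I (7321 bp), II (14354 bp), IV (33885 bp) and V (7866 bp), but not on III (4471 bp). The lower quartile of the width, 216 bp, lay within the autosomal 164 to 230 bp, and that of the ratio, 1.93, within 1.91 to 2.18. The median ratio of 2.29 was the lowest of the 6 chromosomes, but that of chromosome III was 2.36 and that of II 2.39, and only I (2.69), IV (2.71) and V (2.52) stood further off. The median width of 364 bp lay between the 361 bp of II and the 367 bp of III. Input tags per kb before scaling had a median of 50.7 among the 808 regions of at least 250 bp, against 48.1 to 54.2 on the autosomes. That value is a description, since the edge of the stretch was set on it. ChIP tags per kb had a median of 165 in the same regions, against 171 on IV to 195 on III.

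The ratio rests on an input scaling factor inferred for each chromosome. On X the factor was 1.57, nearly that of chromosome V with 1.58, so the comparison with V depends least on it. Against V, the X regions had a median ratio of 2.29 against 2.52, and a ratio above 4 at 7.19% against 12.7%. With input tags before scaling, the median ratio on X was 3.64 and 1 of the 5 autosomes lay below it, so that the lowest place of X depends on the scaling.

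Among regions with a small q, the X regions were wide and of lower ratio. Among the 173 X regions with a q under 1e-10, the median was a width of 737 bp, and the quartiles were 537 and 1117 bp. On the autosomes the medians of such regions lay between 524 bp on III and 595 bp on II. Of these X regions, 53 (30.6%) were 1000 bp or more wide, against 15.6% on I to 23.6% on IV. Counted the other way, these 53 were 61.6% of the 86 broad X regions, inside the autosomal range of 60.3% on V to 86.5% on IV. The 173 X regions had a median ratio of 2.70, against 2.99 on III to 3.25 on I. Their median ChIP tags were 268, against 205 to 238, and their median scaled input tags 101, against 60 to 79. Their ChIP tags per kb, with a median of 289, lay within the autosomal range of 259 to 302. In this class the median X region was wider than that of each autosome. It held more ChIP tags and more scaled input tags at a lower ratio, with ChIP tags per kb among the autosomal values. These are descriptions, since q chose the class, and q depends on both tags and ratio. Among the 100 regions of the list with the smallest q, 15 were X regions of the stretch, 1.3% of its regions (1.3% of the whole list). These 15 were not apart in width: their median was 1037 bp, against 686 to 2082 bp on the autosomes. Of them 60% were 1000 bp or more wide, against 26.7 to 75%.

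Regions with a q of 1e-10 or more were less unlike in median width and median ratio. The 981 such regions on X had a median width of 321 bp, within the 272 to 334 bp of the autosomes, and a median ratio of 2.21, just under the autosomal range of 2.22 to 2.58. In this class 33 regions (3.36%) were 1000 bp or more wide, against 0.882 to 2.62% on the autosomes.

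**Figure D2:**
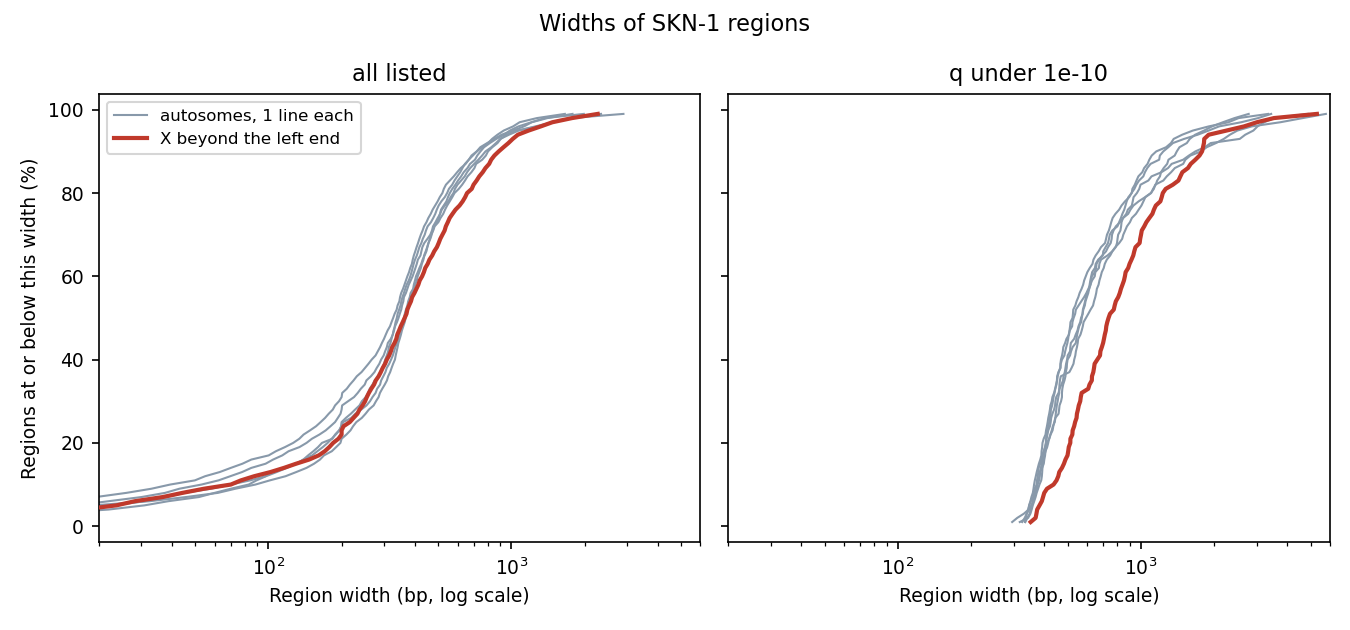
Cumulative share of regions (%) by width (bp, log axis), for X beyond the left end (red) and each autosome (grey), over all listed regions (left) and over those with a q under 1e-10 (right). Over all regions the X curve parts from the autosomes only above about its median of 364 bp. Near its upper end it runs close to those of II and V again. Under 1e-10 the X curve lies to the right of all 5 over most of its course, with a median of 737 bp against 524 to 595 bp.

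Compared at an equal number of ChIP tags, X regions were wider in the middle classes. With 50 to 99 ChIP tags, the 333 X regions had a median width of 317 bp, within the autosomal 313 to 327 bp. With 100 to 199 tags, 326 X regions had a median of 530 bp, against 437 to 474 bp on the autosomes. With 200 to 399 tags, 134 X regions had 838 bp, against 625 to 748 bp. X was above all autosomes in these 2 middle classes. With 400 tags or more, 50 X regions had a median of 1502 bp, inside the wide autosomal range of 1265 to 2034 bp.

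Ratios compared at an equal number of input tags before scaling followed the same outline. The ratio itself divides by scaled input, so its denominators differed within a class. At 20 to 39 tags the median scaled input was 44 on X, against 38 on I to 48 on II. With under 10 input tags before scaling, 223 X regions had a median ratio of 3.29, against 3.43 to 3.68 on the autosomes. With 20 to 39 input tags, 316 X regions had 2.10, against 2.13 to 2.46, and with 40 to 79 tags, 262 X regions had 1.96, against 2.00 to 2.31. The upper end differed more: the 90th percentile of the ratio was 2.92 on X at 20 to 39 input tags, against 3.42 to 3.85, and 2.80 at 40 to 79, against 3.10 to 3.65. In the remaining classes X was not apart. With 10 to 19 tags its median was 2.35, within 2.28 to 2.69, and in the 104 regions with 80 tags or more it was 2.03, within 1.83 to 2.29.

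**Figure D3:**
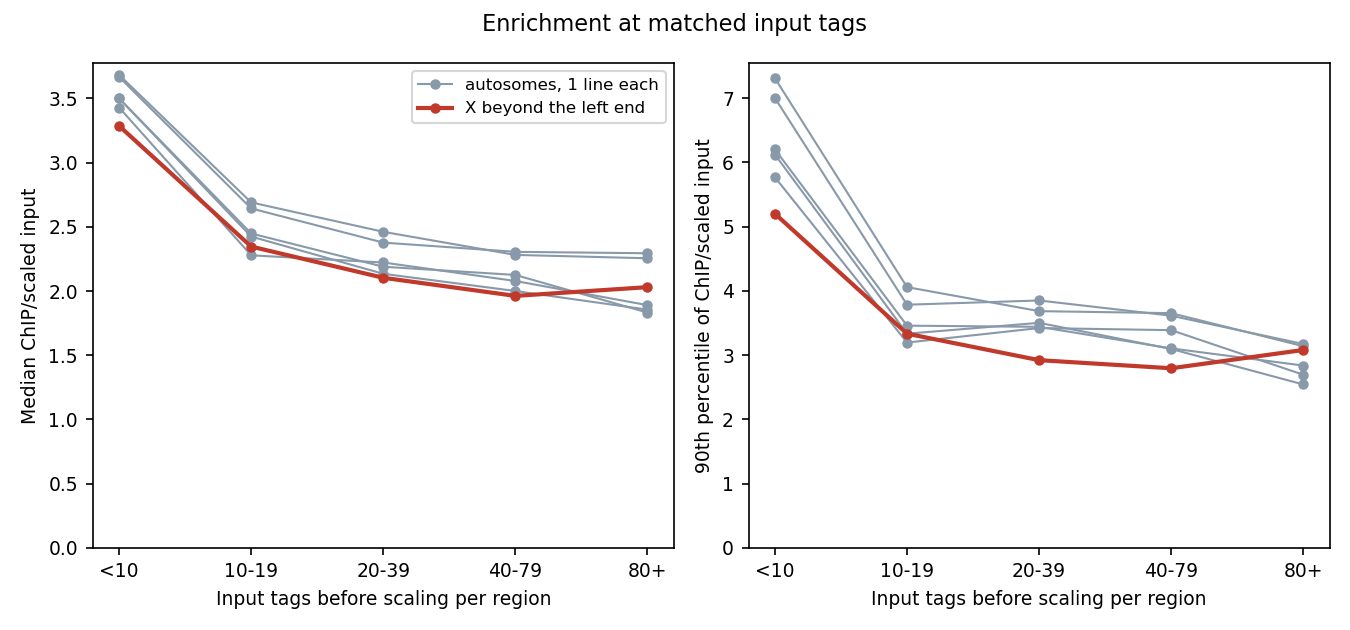
Median (left) and 90th percentile (right) of the ChIP to scaled input ratio per region, by input tags before scaling, for X beyond the left end (red) and each autosome (grey). X is lowest at under 10, 20 to 39 and 40 to 79 input tags and lies among the autosomes at 80 or more, where its median is 2.03.

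With 20 input tags or more before scaling, the highest ratio of the stretch lay below that of each autosome. Among the 682 X regions whose input before scaling was 20 tags or more, the highest ratio was 5.74, and 17 (2.49%) were above 4, against 3.51 to 7.42% on the autosomes. The highest such ratio on each autosome lay between 7.36 on III and 12.1 on I. With input before scaling the highest ratio was 9.09 on X, against 11.3 to 19.5 on the autosomes. A ratio above 6 was reached by 0 of these 682 X regions, against 28 of 4551 in the whole list. Every autosome had from 2 to 10 such regions. On II there were 2 of 621 and on III 2 of 713, so that X lay close to these 2 chromosomes. The whole list also takes in X left of the edge, where a ratio above 6 at this depth did occur. The 0 thus holds only for the stretch, whose edge was set on input, the denominator of the ratio. Other edges were not tried for this count or for the highest ratio. Of the 83 X regions above 4, 61 had under 10 input tags before scaling, a class whose median ratio was 3.29. The highest ratio of any width, 14.5 at 4092203 to 4092233, rested on 29 ChIP tags and 1 input tag before scaling, and its 95% interval ran from 3.07 to 755.

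The region with the smallest q of the stretch, and the fifth in the whole list, was also its widest, 5840 bp at 12663018 to 12668857. It held 1897 ChIP tags against 534 scaled input tags, a ratio of 3.55 (95% exact Clopper-Pearson interval 3.17 to 4.01). The intervals given here cover counting error only and take the scaling factor as known. The next by q, 5241 bp wide at 4141922 to 4147162, had a lower ratio of 2.93 (2.62 to 3.28) on 1776 ChIP tags. A further broad region, 3845 bp at 11789893 to 11793737, had 2.48 (2.19 to 2.81) on 1244 ChIP tags. These 3 are at the same time among the 5 widest of the stretch. Their ChIP tags per kb, from 308 to 326, were under those of the 7 narrower regions among the 10 smallest q, which had 498 to 708.

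The 7 narrower regions among the 10 with the smallest q were 728 to 1203 bp wide. In the region at 14525328 to 14526344 (1017 bp), 766 ChIP tags gave a ratio of 5.14 (4.15 to 6.43). At 12362725 to 12363584 (860 bp), 750 tags gave a ratio of 4.81 (3.91 to 6.02). The region at 11093650 to 11094478 (829 bp), with 718 tags, had 4.52 (3.68 to 5.64). These 3 belong both to the 10 smallest q and to the 10 highest ratios, and their intervals overlap. The remaining 4 had ratios close to 4. They were 3.86 (3.21 to 4.68) at 8035788 to 8036990, where 4 other listed regions lay within 10 kb, and 3.91 (3.20 to 4.86) at 4208479 to 4209614, with a neighbour 847 bp away. At 13700354 to 13701081 the ratio was 4.08 (3.31 to 5.08), and no other listed region lay within 10 kb. The last, at 6296160 to 6296948, had 632 ChIP tags and a ratio of 4.10 (3.32 to 5.14). The 10 with the smallest q held 6.75% of the 146689 ChIP tags of the stretch.

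The highest ratio with at least 20 input tags before scaling was at 6642573 to 6643264, where 482 ChIP tags stood against 84 scaled input tags (5.74, 4.36 to 7.86). It was followed by 16943509 to 16944286 (5.51, 3.69 to 8.67) and 13396508 to 13396882 (5.34, 3.48 to 8.86). The region at 16943509 reached its ratio with a low input of 26.6 tags per kb and 231 ChIP tags per kb, whereas that at 6642573 had 540 ChIP tags per kb. Of the further regions among these 10, that at 16159217 to 16159657 had 220 ChIP tags and a ratio of 4.78 (3.28 to 7.39). A region at 16056152 to 16056794 came to 4.77 (3.73 to 6.27) on 520 ChIP tags, with no listed region within 10 kb. The same isolation held at 9822455 to 9823099, whose ratio was 4.71 (3.41 to 6.68). At 4469276 to 4469646, the narrowest with 371 bp, it was 4.65 (3.23 to 7.19). As all 10 intervals overlap, this depth does not order them, and a ratio selected for being high is on average an overestimate. The 10 were 371 to 1017 bp wide and ranked from 24 to 343 by q in the whole list.

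At the other end, the lowest ratios came with many input tags. The q limit of the list admits a ratio this low only on many tags, so this is a property of the list. The region at 8231656 to 8232639 had 270 ChIP tags against 197 scaled input tags, a ratio of 1.37 (1.11 to 1.72). That at 6746555 to 6747297 had 1.40 (1.06 to 1.86), and that at 10395265 to 10396142 had 1.40 (1.06 to 1.88). The one at 6746555 lies beside the second widest region of the stretch, 5495 bp at 6740365 to 6745859, whose ratio was 2.10 (1.90 to 2.33) on 1605 ChIP tags. The fifth widest, 3141 bp at 3535366 to 3538506, ranked only 896 by q, at a ratio of 1.77 (1.50 to 2.10). Breadth therefore did not go with one level of enrichment: the 86 regions of 1000 bp or more had ratios from 1.43 to 5.14, with a median of 1.96. Of these, 53 were under 1500 bp, 14 were 2000 bp or more and 7 were 3000 bp or more.

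**Figure D4:**
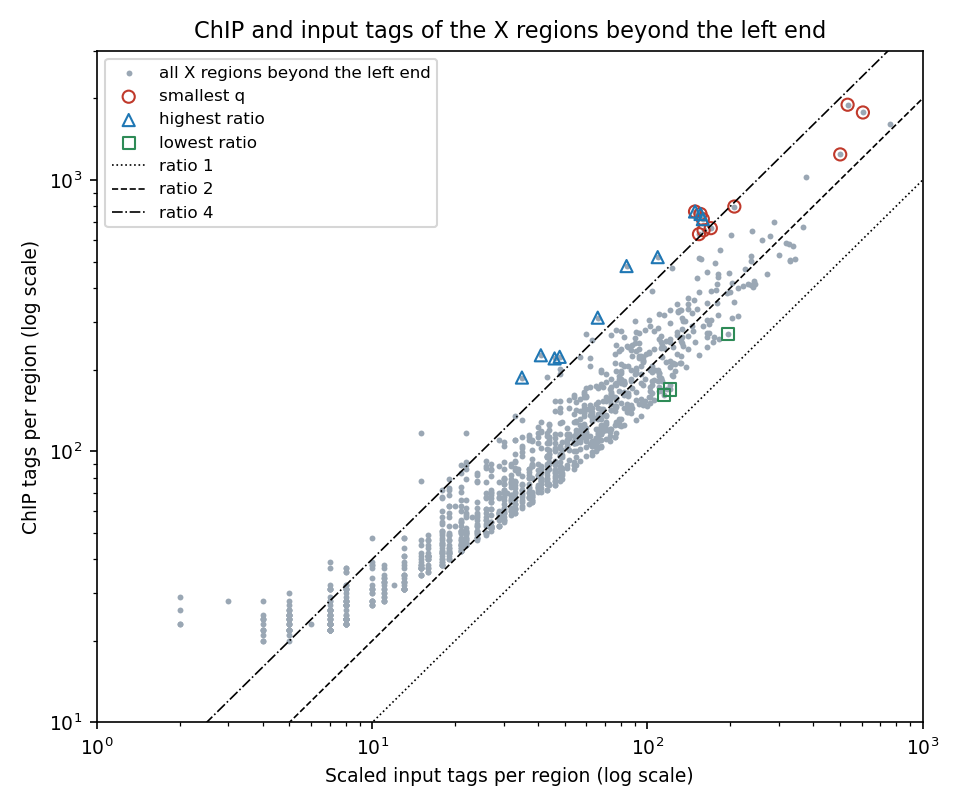
ChIP tags by scaled input tags for each region (both log axes) for the 1154 X regions beyond the left end (grey), with the 10 smallest q (red circles), the 10 highest ratios with at least 20 input tags before scaling (blue triangles) and the 3 lowest ratios (green squares). Lines mark ratios of 1, 2 and 4; most regions lie between 2 and 4 or just under 2, and the empty zone at the lower left edge is where the q limit of the list admits no region.

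Across regions of the stretch, ratio and width ran in opposite directions (Spearman's rho -0.47 over 1154 regions). This is a description across regions that share the same libraries and all passed the q limit of the list, whose part in it was not tested. With position along the stretch, rho was 0.06 for the ratio over these regions and -0.03 for the input per kb over the 808 regions of at least 250 bp. The edge of the stretch was set on input per kb, so the value for input is a description only.

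Regions were spread evenly along X beyond the left end. In the 14 complete bins of 1 Mb, counts ran from 64 (11 to 12 Mb) to 111 (13 to 14 Mb) with a median of 75. Their coefficient of variation was 15.2%, close to the 15.2% of chromosome III and below the 19.8 to 28.6% of the other autosomes. The autosomes were binned over nearly their whole length, whereas X lacks its left end, cut at an edge set on input tags per kb. Evenness is thus not compared over like stretches, and the same limit holds for the windows of 100 kb and the gaps given below. The median ratio per bin stayed between 2.15 (8 to 9 Mb) and 2.47 (14 to 15 Mb). The bin with the fewest regions, from 11 Mb, had the most broad ones, 10 of 1000 bp or more, and the bin with the most regions, from 13 Mb, had the fewest, 3. The bins between these extremes did not keep to that order: from 7 Mb, 70 regions included 4 broad ones, and from 8 Mb, 87 included 7. By count, regions with a q under 1e-10 were most numerous in the bins from 13, 14, 15 and 16 Mb, with 16, 18, 16 and 16, and each of the 10 complete bins to their left held 7 to 14. As a share of the bin's regions, this was 24% from 14 Mb, 22.2% from 16 Mb and 18.4% from 15 Mb, but 14.4% from 13 Mb, within the 10 to 17.7% of the bins to the left. The incomplete last bin, from 17 Mb, had 6 of 61 (9.84%), the lowest share. The bin from 14 Mb also had the highest median of ChIP tags per kb (200.4) and of input tags per kb (61.9). The part of input in its ranks was not tested.

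**Figure D5:**
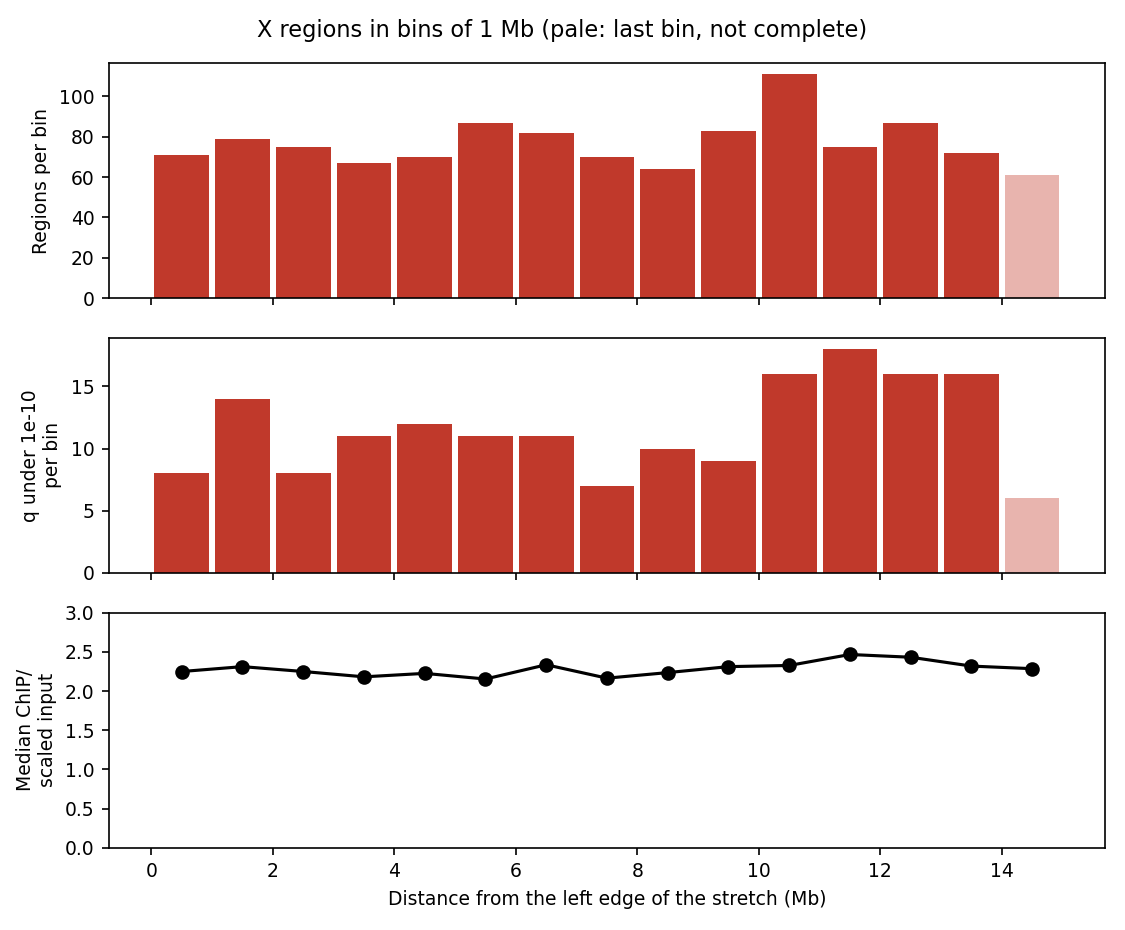
Bins of 1 Mb along X, by distance from the left edge of the stretch (Mb): number of listed regions, number with a q under 1e-10, and median ChIP to scaled input ratio. The pale last bin is not complete. Counts lie between 64 and 111 in complete bins, the 4 complete bins furthest right hold 16 to 18 regions under 1e-10 each, and the median ratio stays between 2.15 and 2.47.

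On a finer scale the densest window of 100 kb, at 13300001 to 13400000, held 20 regions, 5 of them with a q under 1e-10. The next, at 10600001 to 10700000, held 18 regions and 0 under 1e-10, with a median ratio of 1.97, so that density of regions and strength did not go together there. Over 147 complete windows the mean was 7.84. In the part of the stretch made of whole Mb, 0 of 140 windows was empty, as on chromosome I (0 of 130), against 9 of 190 on V. The longest stretches without a region were 14329582 to 14476505 (147 kb) and 7341264 to 7460502 (119 kb). The longest gap on any autosome lay between 149.7 kb on I and 336 kb on V.

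Neighbours within 2 kb, midpoint to midpoint, were found for 406 X regions, or 35.2% (35.7% of the whole list), inside the autosomal range of 29.0 to 42.7% (exact permutation p = 1). Chaining such neighbours left 748 regions alone and gave 129 pairs, 35 groups of 3 and 10 groups of 4 or more. The largest, 6 regions at 17513421 to 17519815, held no broad or highly ranked member: the widest was 651 bp, the best rank by q 2274, and the ratios ran from 1.47 to 3.03. A group of 5 at 12871935 to 12878208 had ratios from 1.57 to 2.49. Of the 86 regions of 1000 bp or more, 42 (48.8%) had a neighbour within 2 kb, against 34.1% of those from 100 bp to under 1000 bp, and here too X lay inside the autosomal range for broad regions of 32.1 to 68.3%. Whether such neighbours are pieces of one enriched stretch was not tested.

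At the edge of the stretch, the regions just inside were 3022341 to 3023047 (ratio 1.72, 45.2 input tags per kb), 3023507 to 3024179 (1.65, 46.96 per kb) and 3035858 to 3036400 (2.83, 87.5 per kb). Just outside lay 2996457 to 2997469 (4.86, 101.4 per kb), 2975734, a lone base (3.80 on 38 ChIP tags), and 2972363 to 2972775 (1.84, 76.7 per kb). Among the regions named here, neither the ratio nor the input tags per kb separated the 2 sides cleanly.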

How the data were processed

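ChIP and input DNA of 1 strain and stage were sequenced (2 libraries each per the labels, which do not say whether replicates came from separate cultures). The authors deposited 1 combined list of regions with a q-value each, called with PeakSeq on WormBase WS180 per the file headers. The aligner, caller settings and depth were not given in the sources used here.

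From the list, p was obtained as q × (rank + 1) / N, with N = 14281 the whole number that made all 200 narrow regions tried a binomial lower tail at probability 0.5 (tolerance 1e-09 in ln p). Tag pairs followed from p: 7710 regions had 1 pair, 4 had 2 and were left out of tag values. Reading the larger number as ChIP and the smaller as scaled input rests on knowledge of PeakSeq. Input before scaling is the smaller number divided by the chromosome's factor (1.57 on X) and rounded down; 10 of the X regions do not lie on multiples of it. Tags per kb divide by the width with 200 bp added, and their medians over all listed regions of a chromosome or bin leave out regions narrower than 250 bp.

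The steps recovered known answers on data simulated under the same formula and rounding (Python 3.11.15, NumPy 2.4.6, SciPy 1.17.1, pandas 2.3.3). This checks the code, not whether the deposited q values were made that way. Regions and comparisons were chosen with earlier results of these data known. The rule for named regions took the 10 smallest q, the 10 highest ratios with at least 20 input tags, the 5 widest, the 3 lowest ratios and 3 on each side of the edge; the region with the highest ratio of any width was added after its value was seen. Genes and sequence were not used, as the only gene table given is on a build other than WS180. Alternatives were stricter lists, other edges, a minimum width, leaving out IV, other input settings and other distances.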

Additional observations from a re-analysis of the deposited data

How the results depend on the processing

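No paired analysis was possible because the libraries are combined in the list; leaving out a replicate was not possible either. Values compared are X beyond the left end minus the median of the autosomes. Of 86 alternatives (47 planned, 39 for results added after the data were seen), 76 kept direction and 10 turned, and none could pass, as the smallest exact permutation p is 0.167. X had the highest share of regions of 1000 bp or more under all 7 of its alternatives. For the median width under a q of 1e-10 the same held under all 7, but the stricter lists and the minimum width leave those regions as they are. The share of ratios above 4 was lowest on X under 8 of 9 alternatives, and the median ratio under 8 of 9, both except with input tags before scaling. The share under 1e-10 was lowest in 5 of 7: with the edge at 2500000 and over all of X, V was lower. The median width of X became the highest in the best-ranked 3857 regions (543 bp against 424.5 to 471 bp) and 1928 regions (692 against 508 to 559.5 bp). It was also highest for widths of at least 100 bp (403 against 361 to 388 bp) and over all of X (369 against 326 to 367 bp). With the other edges and without IV it stayed among the autosomes. The stricter lists select on q, so their widths are descriptions.

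The 10 that turned concern values where X lay among the autosomes, except ChIP tags per kb. Regions per Mb, at -2.22, became 1.44 for widths of at least 100 bp and 3.55 without IV. Input tags per kb, at -1.41, became 6.63 in the best-ranked 1928 regions, 4 over all of X, 0.37 without IV and 3.92 with scaled tags. In the best-ranked 1928 regions X then had the highest value, 64.5 against 54.15 to 58.6 on the autosomes. The same held over all of X, with 56.1 against 48.1 to 54.2. The share with a neighbour within 2 kb, at 2.12 percentage points, became -3.44 in the best-ranked 1928 regions and -0.32 for 1 kb. ChIP tags per kb, at -11.3, became 0.94 in the best-ranked 1928 regions and 3.10 over all of X, which takes in the left end. The cause of the other turns was not tested. X regions under 100 bp had medians of 24 ChIP and 7 scaled input tags.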
